A study of Homo sapiens with 18 samples.

Results

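The metalloproteinase cluster on chromosome 11 holds 9 genes for matrix metalloproteinases, namely MMP7, MMP20, MMP27, MMP8, MMP10, MMP1, MMP3, MMP12 and MMP13 in the order of the hg38 genome build, all on the minus strand. Every consensus ATAC-seq peak of a 0.5 Mb stretch that holds these genes was taken, whatever its level or change, which gave 81 of the 334857 peaks in the table, the first starting at base 102513917 and the last ending at base 102996859. ATAC-seq measures chromatin accessibility, since a transposase cuts open chromatin and leaves sequencing adaptors there. The cells were Ccd18-Co fibroblasts, a human line derived from colon, so all groups come from 1 line.

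The 18 libraries formed 3 groups of 6. Unstimulated cells received no cytokines, and the labels name no solvent for them. Both stimulated groups received 3 pulses of TNF, OSM and IL-17A at 10 ng/ml each with IL-1β at 0.1 ng/ml, each pulse lasting 72 h with 96 h of recovery. After a rest they were given either DMSO or 250 nM belinostat, a histone deacetylase inhibitor, for 5 days, and were collected 2 weeks later. These are the doses of the labels, and the study's own text also gives other concentrations of IL-1β and belinostat. The cytokine comparison set DMSO against unstimulated libraries and asked what the pulses left behind. The belinostat comparison set belinostat against DMSO libraries and asked what the drug changed in pulsed cells. The residual comparison set belinostat against unstimulated libraries and shares its samples with the other two. Nothing in the labels says that the libraries of a group came from separate cultures on separate days, so p-values measure the spread between these libraries.

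Matrix metalloproteinases are zinc-dependent enzymes, and many of them are secreted and cut extracellular matrix. Many leave the cell as inactive proenzymes and are switched on by removal of the propeptide, for instance by plasmin or by another metalloproteinase. The TIMP proteins block metalloproteinases. In the gut, fibroblasts are a known source of the collagenase MMP1 and the stromelysin MMP3 in inflamed and ulcerated mucosa. The promoters of several members are textbook targets of AP-1, a transcription factor that binds TGANTCA.

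Total counts in peaks ran from 7077321 to 11352032 for unstimulated libraries, from 6488975 to 8066642 for DMSO and from 4661678 to 6370845 for belinostat, so depth moved with the group, and its part in the results was not tested. The 10000 strongest peaks took 35.3 to 39.0% of the counts of unstimulated libraries, 31.9 to 35.2% for DMSO and 28.5 to 34.6% for belinostat, so that strong peaks as a whole lost share in the stimulated groups. A peak was found within 1 kb of the start for 8 of the 9 fibroblast markers looked up (median of the highest peak 4.43 log2 CPM), and THY1 had none. Of the markers of other cell types, the 4 epithelial ones had peaks with a median of -0.12 log2 CPM. The highest of these was 1.61 log2 CPM at EPCAM, above the 1.41 of the fibroblast marker DCN. Peaks of 2 of 4 immune genes reached up to 3.75 log2 CPM at CD14, and those of 2 of 3 endothelial genes stayed at -0.14 log2 CPM or below. CPM stands for a count scaled by library size and composition.

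The cluster peaks lay mostly outside the member genes. Of the 81, 25 overlapped a member gene, 6 lay only in the 3 kb upstream of a start and 50 lay between or beside member genes. Some of these 50 lay in introns of other genes, such as the pseudogene WTAPP1. The longest row was the 14 peaks between MMP12 and MMP13, followed by 8 each between MMP20 and MMP27 and beyond MMP13. Peak density was 162.0 per Mb against 125.2 per Mb over chromosome 11, and the median width was 319 bp against 275 bp for all peaks. The median of the average log2 CPM was 0.44 in the cluster against 0.20 for all peaks, with a range from -0.69 to 4.48. Thus 37 of the 81 were below the median of all peaks. Levels are not divided by peak width, so a wide peak has a higher level than a narrow one of equal openness.

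**Figure D1:**
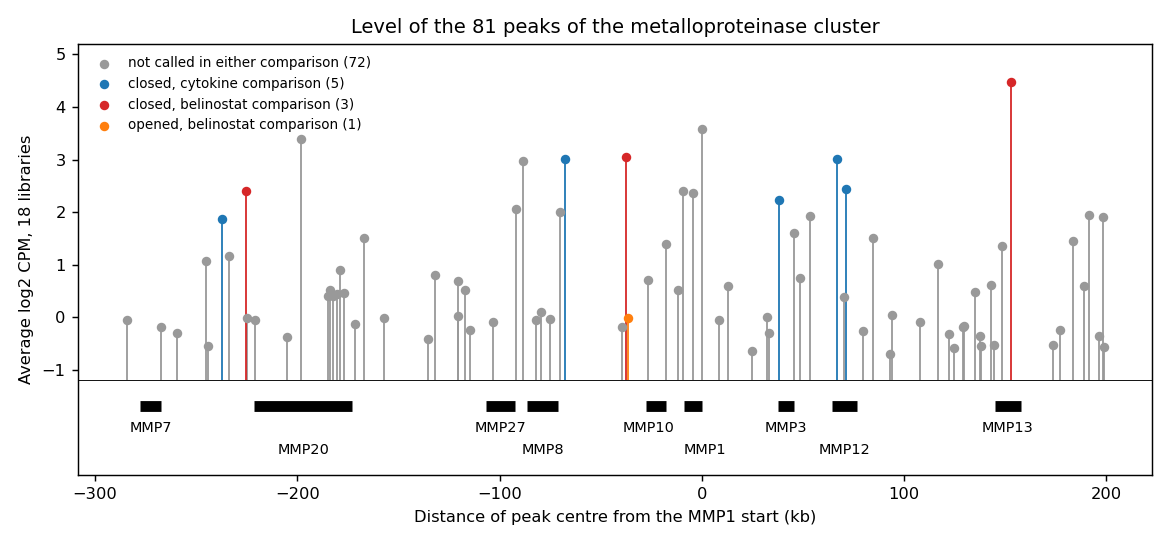
Average log2 CPM over the 18 libraries (vertical axis) of each of the 81 peaks against the distance of its centre from the MMP1 start in kb (horizontal axis), with the 9 genes as bars below. The peaks called in the cytokine or the belinostat comparison are colored, and all but the 1 opened peak stand above 1.8 log2 CPM.

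The windows over the peaks were rich in AP-1 words. In the central 300 bases of the peaks, TGANTCA (searched on both strands, as were all words) was found in 34.6% of cluster peaks and in 17.8% of all peaks. The CEBP word TTGCNNAA was found in 28.4% against 14.1%, and TATAAA in 30.9% against 13.6%. The ETS word AGGAAG (37.0% against 34.5%), the RUNX word TGTGGT (19.8% against 22.6%), the TEAD word GGAATG (24.7% against 21.3%) and the kappaB word GGGANNTTC (4.94% against 3.99%) differed less, and AGGAAG and GGAATG can share bases. The cluster was also poorer in G and C, with a median of 42.0% against 49.7%, which was not matched in these shares. They are descriptions of letters and were not tested.

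These stretches carry the belinostat results below and are printed as the plus strand of hg38, with AP-1 words in capitals. The first is the middle of the peak between MMP8 and MMP10 that closed most clearly, chr11:102760543-102760842. The second is the middle of the small peak beside it, chr11:102761710-102762009, which opened. The third is the middle of the MMP13 intron peak, chr11:102950713-102951012.
Closed peak, MMP8 to MMP10: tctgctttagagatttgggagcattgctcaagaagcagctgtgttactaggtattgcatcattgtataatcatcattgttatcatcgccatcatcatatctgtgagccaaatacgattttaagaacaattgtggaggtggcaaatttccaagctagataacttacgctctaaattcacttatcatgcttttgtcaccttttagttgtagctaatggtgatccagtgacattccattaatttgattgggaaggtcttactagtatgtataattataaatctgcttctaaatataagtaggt
Opened peak, MMP8 to MMP10: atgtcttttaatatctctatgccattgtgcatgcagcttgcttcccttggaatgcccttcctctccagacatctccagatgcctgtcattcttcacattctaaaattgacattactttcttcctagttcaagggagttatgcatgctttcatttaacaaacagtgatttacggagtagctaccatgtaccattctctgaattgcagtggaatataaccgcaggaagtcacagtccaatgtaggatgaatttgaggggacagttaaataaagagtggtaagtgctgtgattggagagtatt
MMP13 intron peak: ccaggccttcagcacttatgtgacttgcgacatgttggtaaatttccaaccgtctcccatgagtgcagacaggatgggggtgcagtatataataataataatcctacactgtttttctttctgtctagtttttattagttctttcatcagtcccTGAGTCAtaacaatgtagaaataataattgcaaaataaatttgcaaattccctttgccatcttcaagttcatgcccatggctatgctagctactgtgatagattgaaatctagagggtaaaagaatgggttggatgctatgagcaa
Only the third of these stretches has an AP-1 word. Over the 9 peaks called in the cytokine or the belinostat comparison, 2 had one in the central 300 bases. Outside that window the closed peak between MMP8 and MMP10 held 3 AP-1 words and the closed belinostat peak between MMP7 and MMP20 held 1.

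The RefSeq promoter table (GRCh38.p14) held 5 of the 9 members, MMP7, MMP20, MMP27, MMP8 and MMP10. The 250 bases before the start are printed for MMP7 (chr11:102530748-102530997) and MMP10 (chr11:102780629-102780878), because each of these starts lies in a peak. Both run 5′ to 3′ on the minus strand, with AP-1 words and TATAAA in capitals.
MMP7: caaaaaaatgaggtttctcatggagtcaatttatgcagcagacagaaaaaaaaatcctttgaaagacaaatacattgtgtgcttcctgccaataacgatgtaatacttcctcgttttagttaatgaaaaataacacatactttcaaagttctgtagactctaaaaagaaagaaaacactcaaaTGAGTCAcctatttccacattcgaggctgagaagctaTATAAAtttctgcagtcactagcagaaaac
MMP10: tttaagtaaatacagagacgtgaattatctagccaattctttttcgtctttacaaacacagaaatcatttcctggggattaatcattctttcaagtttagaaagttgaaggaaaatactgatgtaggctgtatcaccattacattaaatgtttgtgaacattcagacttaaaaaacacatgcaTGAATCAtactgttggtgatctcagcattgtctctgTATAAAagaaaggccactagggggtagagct
In both, the AP-1 word begins 67 bases before the start, and TATAAA begins 30 bases before it in MMP7 and 31 in MMP10. Of the members in the table that are not printed, MMP20 had an AP-1 word 112 bases and TATAAA 72 bases before its start. MMP8 had TATAAA 110 bases before its start and no AP-1 word, and MMP27 had neither word. Across all promoters of the table, in windows of 300 bases, 7.71% had the AP-1 word and 11.5% had TATAAA.

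In the cytokine comparison 0 of the 81 peaks opened and 5 closed at an adjusted p under 0.05 (edgeR quasi-likelihood test, adjusted over all peaks). Over all peaks 9.51% opened and 9.73% closed. At an unadjusted p under 0.05 the cluster counts were 0 and 9, a threshold at which no share of all peaks was taken. DESeq2 called 0 opened and 3 closed in the cluster, and 15215 and 18587 of 334853 over all peaks. All 5 closed peaks had an average log2 CPM of at least 1, a level at which 31.9% of all peaks closed, against 5 of 27 in the cluster. Across the 81 peaks the median log2 fold change was -0.05, against 0.13 over all peaks. Levels within that class differ: the share of closed peaks rose from 5.61% to 79.1% over the 6 of 20 level bins that reach it, and of the 27 cluster peaks 1 lay in the strongest bin, so nothing is read from the lower share. With loess offsets, which remove the trend of each library with peak level, 0 of these 5 were called and 1 cluster peak opened, where 2% of all peaks opened and 1.9% closed.

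In the belinostat comparison 1 peak opened and 3 closed. Over all peaks 0.607% opened and 1.75% closed. All 3 closed peaks were again of at least 1 log2 CPM, where 5.8% of all peaks closed, against 3 of 27 in the cluster. At an unadjusted p under 0.05, 6 cluster peaks opened and 11 closed, again with no share of all peaks to set beside them. Across the cluster the median change was -0.06 on the log2 scale, against 0.01 over all peaks. With loess offsets the 3 closed peaks were called again with 1 more, while the opened one was not, where 0.945% of all peaks opened and 1.51% closed. No peak was called in both comparisons.

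**Figure D2:**
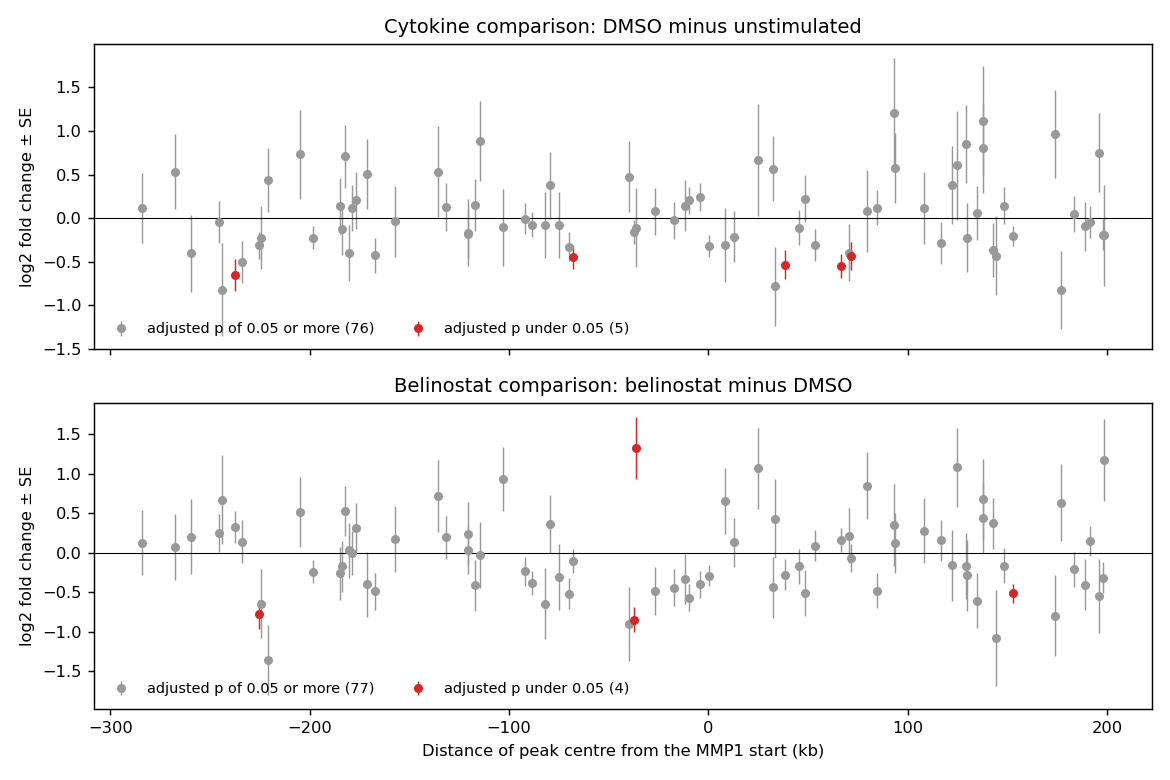
Log2 fold change with its standard error (vertical axis) of each of the 81 peaks against the distance from the MMP1 start in kb, for the cytokine comparison (upper panel) and the belinostat comparison (lower panel). Filled red points have an adjusted p under 0.05, 5 in the upper and 4 in the lower panel, and the large gray values belong to weak peaks with wide errors.

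In the residual comparison 9 peaks opened and 14 closed, where 16.8% and 13.7% of all peaks did. Of the 14 closed peaks, 13 were of at least 1 log2 CPM, and the 9 opened ones were all below it. Over all peaks the share closed was 9.64% in the weakest level bin that reaches 1 log2 CPM and 94.8% in the strongest bin. The share opened was 34.0% in the weakest bin of all and 0.113% in the strongest. The split by level is thus also that of all peaks and is not read as a trait of the cluster. With loess offsets the counts were 0 opened and 8 closed, where 3.82% and 4.92% of all peaks did.

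MMP1, MMP8 and MMP13 are the collagenases, the enzymes that make the first cut in fibrillar collagen. MMP1 had 2 peaks in its body. The start peak, chr11:102798040-102798726, covered the first exon, its coding and untranslated parts and an exon of WTAPP1, a pseudogene that spans this stretch, so its counts cannot be given to either gene. Its log2 CPM was 3.64 at the lowest, 3.83 at the median and 4.09 at the highest in unstimulated libraries, 3.31, 3.43 and 3.90 in the DMSO group, and 3.15, 3.26 and 3.38 in the belinostat group. The unstimulated and belinostat libraries did not overlap, while the DMSO libraries lay between them and overlapped both. The log2 fold change was -0.32 ± 0.12 (SE) in the cytokine comparison (adjusted p = 0.0545) and -0.29 ± 0.14 in the belinostat comparison (adjusted p = 0.271), so neither passed. The cytokine change passed in 8 of 26 alternatives and was 0.014 with loess offsets. In the residual comparison the log2 fold change was -0.61 ± 0.13 (adjusted p = 0.000143), which did pass. Peaks of like level had a median residual change of -0.45, and loess offsets gave -0.13 (adjusted p = 0.483).

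The second MMP1 peak, in an intron at chr11:102793506-102793950, had a cytokine log2 fold change of 0.24 (adjusted p = 0.296). It was the 1 cluster peak that opened with loess offsets, at 0.48 (adjusted p = 0.0472), and is named here after its values were seen. The nearby peak chr11:102788224-102788969, between MMP10 and MMP1, sat just outside the threshold in the belinostat comparison at -0.57 ± 0.17 (adjusted p = 0.0501). Its libraries ran from 2.29 to 2.85 log2 CPM in DMSO and from 1.84 to 2.51 in belinostat, so the groups overlapped.

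MMP8, the collagenase of neutrophils, had 5 peaks in its body and upstream stretch. Its GENCODE start is 2096 bp upstream of its RefSeq start, and no peak covered either. The nearest peak to the GENCODE start was 911 bp away, at chr11:102727961-102728281, and changed by -0.33 ± 0.17 (cytokine, adjusted p = 0.164) and -0.52 ± 0.20 (belinostat, adjusted p = 0.166). The next peak upstream, chr11:102729917-102730777, closed in the cytokine comparison. Its log2 CPM was 3.18, 3.26 and 3.56 (lowest, median and highest) in unstimulated libraries, 2.69, 2.83 and 3.15 in the DMSO group, and 2.65, 2.71 and 2.98 in the belinostat group. Every unstimulated library was above every DMSO library. The log2 fold change was -0.44 ± 0.14 (adjusted p = 0.015), beside a median of -0.34 for peaks of like level. Without unstimulated replicate 3 it was -0.38 (adjusted p = 0.0525), while loess offsets gave -0.14 (adjusted p = 0.506).

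MMP13, a collagenase with a strong preference for type II collagen, had no peak over its start. Both of its peaks lay in introns, and the one at chr11:102950336-102951389, 4343 bp inside the start, had the highest count of the cluster (2810 over the 18 libraries) and was also the widest, at 1054 bp. Its log2 CPM was 4.55, 4.66 and 5.13 in unstimulated libraries, 4.16, 4.53 and 4.85 in the DMSO group, and 3.76, 4.12 and 4.21 in the belinostat group. The belinostat libraries lay below all unstimulated libraries and overlapped the DMSO libraries at their lower end. The peak closed in the belinostat comparison, by -0.51 ± 0.12 on the log2 scale (adjusted p = 0.00399), where peaks of like level had a median of -0.16. With loess offsets it was -0.34 (adjusted p = 0.0109), and with TMM over the weaker 50% of peaks it was -0.64 and not called (adjusted p = 0.11). The cytokine change was -0.20 ± 0.11 (adjusted p = 0.186). In the residual comparison the peak closed by -0.72 ± 0.12 (adjusted p = 5.76e-07 in edgeR), beside a median of -0.53 for peaks of like level. With loess offsets the residual change was -0.17 and not called (adjusted p = 0.212 in edgeR).

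MMP3 and MMP10 are the stromelysins, which degrade proteoglycans, laminin and fibronectin and activate procollagenases. The MMP3 start peak, chr11:102843123-102843904, had a log2 CPM of 1.46, 1.75 and 1.87 in unstimulated libraries, 1.31, 1.53 and 2.04 in the DMSO group, and 0.09, 1.44 and 1.99 in the belinostat group. The groups overlapped throughout, and belinostat replicate 2 was far below the others. The change was -0.11 ± 0.20 (cytokine, adjusted p = 0.732) and -0.17 ± 0.22 (belinostat, adjusted p = 0.718), and without belinostat replicate 2 the latter was -0.02 (adjusted p = 0.978). At the other end of MMP3, the peak chr11:102836079-102836781 covered the last exon, its untranslated part and an exon of WTAPP1, and closed in the cytokine comparison. Its log2 CPM was 2.46, 2.62 and 2.70 in unstimulated libraries, 1.37, 2.21 and 2.56 in the DMSO group, and 1.52, 1.68 and 2.35 in the belinostat group. The DMSO libraries spread widely and their highest overlapped the unstimulated ones. The log2 fold change was -0.53 ± 0.17 (adjusted p = 0.0158), and without DMSO replicate 2 it was -0.42 (adjusted p = 0.0737). With loess offsets it was -0.31 (adjusted p = 0.259). In the residual comparison this peak closed by -0.81 ± 0.18 (adjusted p = 0.000213 in edgeR), beside a median of -0.35 for peaks of like level. Its belinostat libraries lay below all unstimulated ones. The residual change with loess offsets was -0.50 (adjusted p = 0.0474 in edgeR), and the residual call was kept in all 26 alternatives.

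MMP10 had a start peak at chr11:102780458-102780829, over its first exon, with 298 counts in all. It changed by -0.03 ± 0.21 (cytokine, adjusted p = 0.94) and -0.44 ± 0.24 (belinostat, adjusted p = 0.342), and its groups overlapped.

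The change with the smallest adjusted p of the cytokine and belinostat comparisons stood between MMP8 and MMP10, in an intron of WTAPP1. The peak chr11:102760313-102761073 had a log2 CPM of 3.12, 3.27 and 3.85 in unstimulated libraries, 2.94, 3.12 and 3.52 in the DMSO group, and 1.65, 2.53 and 2.70 in the belinostat group. Every belinostat library was below every DMSO and every unstimulated library. The log2 fold change was -0.85 ± 0.16 (belinostat, adjusted p = 0.000105), beside a median of -0.12 for peaks of like level, and -0.16 ± 0.14 in the cytokine comparison (adjusted p = 0.423). The belinostat call was kept in all 26 alternatives run, with values from -0.98 to -0.72. In the residual comparison the peak closed by -1.01 ± 0.16 (adjusted p = 9.08e-08 in edgeR), beside a median of -0.45 for peaks of like level. With loess offsets the residual change was -0.58 (adjusted p = 0.00195 in edgeR).

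The neighboring peak chr11:102761701-102762019, 627 bp away, opened by 1.33 ± 0.39 (adjusted p = 0.0414). It was thin, with 21 counts over the DMSO and 44 over the belinostat libraries. Its log2 CPM ran from -1.32 to 0.13 in DMSO and from -0.25 to 1.04 in belinostat libraries, and the groups overlapped. Leaving out any of 7 libraries (DMSO replicates 1, 3, 4 and 6, belinostat replicates 2, 3 and 6) ended the call, with values from 1.10 to 1.40 and adjusted p from 0.0518 to 0.139, and so did loess offsets (1.21, adjusted p = 0.0636).

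**Figure D3:**
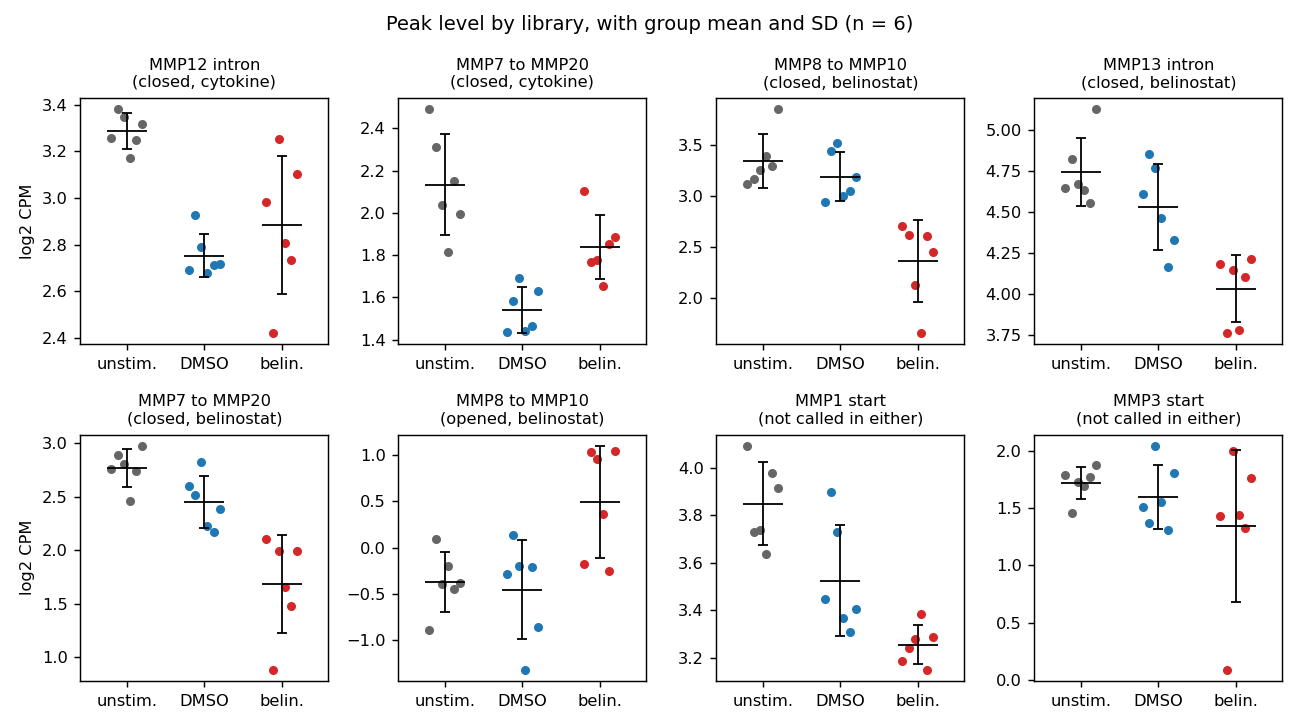
Log2 CPM (vertical axis) in each of the 6 unstimulated (unstim.), 6 DMSO and 6 belinostat (belin.) libraries for 8 peaks, with bars for the group mean and its SD; each panel has its own vertical range. The belinostat points of the closed peak between MMP8 and MMP10 lie wholly below the DMSO points, while those of the MMP3 start overlap.

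MMP7 is matrilysin, the smallest member, made chiefly by epithelium. Its only peak, chr11:102530609-102530850, lay over the start with 74 counts over the 18 libraries, 1 to 8 in each. At this depth its changes of 0.53 ± 0.43 (cytokine, adjusted p = 0.391) and 0.07 ± 0.41 (belinostat, adjusted p = 0.945) could not be told from none. Between MMP7 and MMP20 lay 7 peaks, of which 1 closed in each comparison. The peak chr11:102560486-102561022 had a log2 CPM of 1.82, 2.10 and 2.49 in unstimulated libraries, 1.44, 1.52 and 1.69 in the DMSO group, and 1.65, 1.82 and 2.10 in the belinostat group. The DMSO libraries lay below all unstimulated libraries, with the belinostat libraries overlapping both. Its cytokine change was -0.66 ± 0.18 (adjusted p = 0.00784) beside a median of -0.21 for peaks of like level, and its belinostat change 0.33 ± 0.20 (adjusted p = 0.421). With loess offsets the cytokine change was -0.48 (adjusted p = 0.107).

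The other, chr11:102572491-102573318, had a log2 CPM of 2.46, 2.78 and 2.97 in unstimulated libraries, 2.17, 2.45 and 2.82 in the DMSO group, and 0.89, 1.82 and 2.10 in the belinostat group. Its belinostat libraries lay below every library of the other groups, though the highest (2.10) was close to the lowest DMSO library (2.17). It closed by -0.78 ± 0.19 (belinostat, adjusted p = 0.00476) and was called in all 26 alternatives, with an adjusted p of at most 0.0403. In the residual comparison it closed by -1.09 ± 0.18 (adjusted p = 3.77e-07 in edgeR), beside a median of -0.35 for peaks of like level. With loess offsets the residual change was -0.75 (adjusted p = 0.00096 in edgeR).

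MMP12 is the macrophage elastase. It had no peak over its start, the nearest being 2626 bp upstream with 69 counts. Its intron peak chr11:102864319-102865137 had a log2 CPM of 3.17, 3.29 and 3.38 in unstimulated libraries, 2.68, 2.71 and 2.93 in the DMSO group, and 2.42, 2.90 and 3.25 in the belinostat group. The unstimulated and DMSO libraries did not overlap, and the belinostat libraries ran across both. The cytokine change was -0.55 ± 0.14 (adjusted p = 0.00348), beside a median of -0.34 for peaks of like level, and the belinostat change 0.16 ± 0.15 (adjusted p = 0.618). With loess offsets the cytokine change was -0.25 (adjusted p = 0.231). A second MMP12 intron peak, chr11:102869277-102869751, closed by -0.44 ± 0.16 (adjusted p = 0.0379), but its groups overlapped. Leaving out unstimulated replicate 1, 4 or 6 or DMSO replicate 1, 2, 4 or 6 ended that call (adjusted p from 0.0509 to 0.153), and loess offsets gave -0.19 (adjusted p = 0.494).

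MMP20, the enamelysin of developing teeth, held 10 peaks, the most of any member, 7 of them shared with the antisense gene MMP20-AS1. Its intron peak chr11:102599609-102600391 had 1285 counts and changed by -0.22 ± 0.13 (cytokine, adjusted p = 0.218) and -0.24 ± 0.14 (belinostat, adjusted p = 0.398). The peak at its 3′ end, chr11:102577238-102577447, was the additional belinostat call with loess offsets, at -1.47 (adjusted p = 0.0403), from 86 counts. It was -1.36 (adjusted p = 0.0791) with TMM and is named after its values were seen. Between MMP27 and MMP8 stood a single peak, chr11:102709320-102710244, with 957 counts, which changed by -0.07 ± 0.14 (cytokine, adjusted p = 0.744) and -0.38 ± 0.15 (belinostat, adjusted p = 0.187). The MMP27 start was 73 bp from a peak, chr11:102705842-102706482, that changed by -0.23 ± 0.19 in the belinostat comparison (adjusted p = 0.539) and hardly in the cytokine comparison (adjusted p = 0.989).

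For each gene, counts of the peaks over its body and the 3 kb upstream were added up. These sums were scaled on gene loci, which set the median of all genes near 0; with the factors of the peaks the median of all genes was -0.26 (cytokine) and -0.08 (belinostat) on the log2 scale. In the cytokine comparison 1 of the 9 loci was lower and 0 higher, where 12.2% and 19.5% of all 18887 genes were. At an unadjusted p under 0.05 the counts were 1 lower and 1 higher, and DESeq2 called 0 of either. MMP12 was the lower one, at -0.23 ± 0.09 (adjusted p = 0.0378), and leaving out any of 6 libraries (unstimulated replicates 2, 4, 5 and 6, DMSO replicates 1 and 6) ended the call, with adjusted p from 0.0535 to 0.109. With loess offsets it was -0.31 (adjusted p = 0.0101). In the belinostat comparison 1 locus was lower and 0 higher, where 3.72% and 1.76% of genes were. At an unadjusted p under 0.05 the counts were 2 lower and 1 higher, and DESeq2 called 1 lower and 0 higher. MMP13 was the lower one, at -0.38 ± 0.10 (adjusted p = 0.0254). Its locus levels were 4.69, 5.03 and 5.29 log2 CPM in DMSO and 4.31, 4.62 and 4.80 in belinostat libraries, which overlapped. Without DMSO replicate 2, DMSO replicate 3 or belinostat replicate 2 it was -0.32, -0.37 and -0.34 (adjusted p = 0.0778, 0.0538 and 0.0697). The intron peak described above supplies 2810 of the 3098 counts of this locus.

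In the residual comparison MMP13 was lower (-0.31 ± 0.10, adjusted p = 0.0117) and MMP7 higher (0.93 ± 0.40, adjusted p = 0.0498), where 24.2% and 27% of genes were. The MMP7 value rests on 74 counts and turned to -0.24 with loess offsets, and leaving out any library but unstimulated replicate 6 and DMSO replicates 1 and 3 ended the call (adjusted p from 0.0506 to 0.105).

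MMP1 and MMP3 loci did not pass in any of these comparisons when scaled on gene loci. In the residual comparison the MMP3 locus was lower with loess offsets (-0.58, adjusted p = 0.00193 in edgeR), and both loci were lower with the factors of the peaks (-0.48 for MMP1 and -0.56 for MMP3, adjusted p = 0.000214 and 0.000562 in edgeR). For MMP1 the locus was at 4.15, 4.22 and 4.59 log2 CPM in unstimulated libraries, 4.25, 4.36 and 4.67 in the DMSO group, and 3.95, 4.17 and 4.52 in the belinostat group, with overlap in each pair of groups. Its changes were 0.09 ± 0.10 (cytokine, adjusted p = 0.507) and -0.23 ± 0.11 (belinostat, adjusted p = 0.222), and the former was -0.16 with the factors of the peaks. MMP3 changed by -0.03 ± 0.13 (cytokine, adjusted p = 0.851) and -0.20 ± 0.14 (belinostat, adjusted p = 0.429), and its cytokine value turned to 0.31 with peaks near the start alone. MMP10 was at 0.26 ± 0.17 and -0.37 ± 0.19, MMP8 at -0.10 ± 0.10 and -0.12 ± 0.11, MMP20 at 0.20 ± 0.08 and -0.04 ± 0.09, and MMP27 at 0.23 ± 0.16 and 0.05 ± 0.16 for the cytokine and belinostat comparison. None of these passed when scaled on gene loci, and the cytokine sign of MMP10 and MMP27 flipped with loess offsets, while that of MMP20 and MMP27 flipped with the factors of the peaks. With those factors MMP8 was lower in the cytokine comparison (-0.34, adjusted p = 0.0041), as were 11635 of all 18887 genes.

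**Figure D4:**
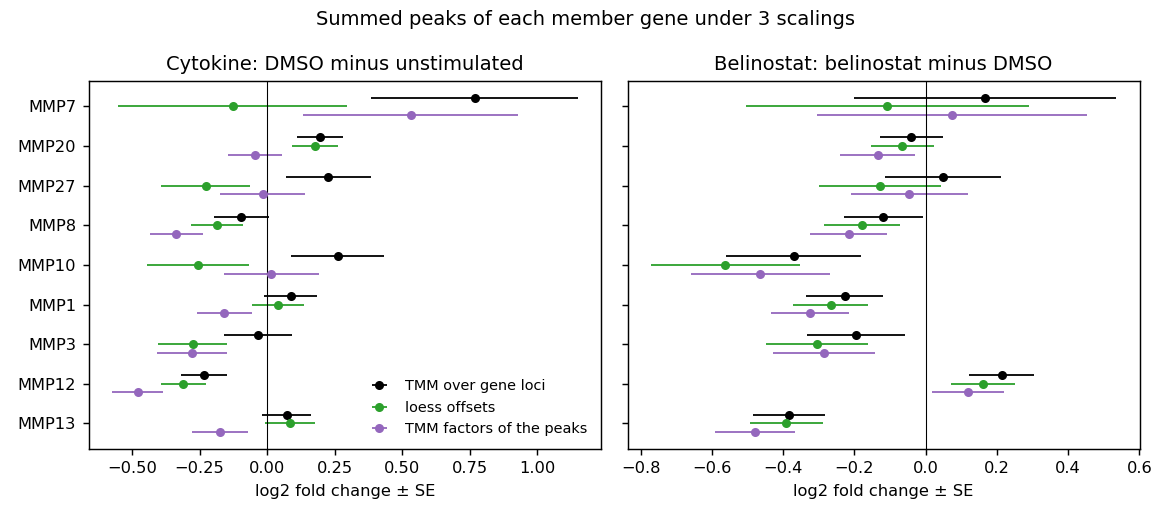
Log2 fold change with its standard error (horizontal axis) of the summed peaks of each of the 9 members (vertical axis) in the cytokine comparison (left) and the belinostat comparison (right) under 3 scalings. In the cytokine comparison 6 members are negative with loess offsets and 6 are positive under TMM over gene loci, and in the belinostat comparison MMP13 is negative under all 3.

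Loci whose levels followed MMP1 most closely over the 18 libraries, by the smallest root mean square difference of centered log2 CPM among 6626 loci of like level, were CYP2S1 (0.126), VAMP8 (0.128) and CCDC113 (0.131). For MMP3 they were GYS2 (0.161), IER3IP1 (0.164) and TPPP2 (0.176) among 3813 loci. The centered levels of MMP1 and MMP3 varied with an SD of 0.201 and 0.264, so the likeness is loose.

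The other genes of the system were read from lists. Of 14 metalloproteinase genes outside the cluster, 4 were higher and 3 lower in the cytokine comparison, where 19.5% and 12.2% of all genes were. The counts were 1 and 0 with loess offsets, where 2555 and 1407 of 18887 genes were. They were 2 and 8 with the factors of the peaks, where 2009 and 11635 of 18887 genes were. In the belinostat comparison 1 was higher and 1 lower, where 1.76% and 3.72% of all genes were. The belinostat calls were MMP11 (0.25 ± 0.06, adjusted p = 0.0149), a stromelysin of stromal cells, and MMP14 (-0.38 ± 0.05, adjusted p = 3.3e-05), the membrane-bound metalloproteinase that activates MMP2. With the factors of the peaks MMP11 was at 0.16 and not called (adjusted p = 0.283), while MMP14 was called under all 3 scalings of the belinostat comparison. MMP14 was also lower in the cytokine comparison (-0.16 ± 0.04, adjusted p = 0.00877 in edgeR). With loess offsets that cytokine change was -0.11 and not called (adjusted p = 0.0684 in edgeR). Of 5 inhibitor genes, TIMP1 to TIMP4 and RECK, 1 was lower in the cytokine comparison, RECK (-0.15 ± 0.06, adjusted p = 0.0408), where 12.2% of all genes were. With loess offsets RECK was at -0.10 and not called (adjusted p = 0.164). With the factors of the peaks 4 of the 5 inhibitors were lower, where 11635 of 18887 genes were. In the belinostat comparison 0 inhibitors were called, with 2 at an unadjusted p under 0.05. Of 5 genes of the plasminogen and proprotein system, 0 were called in the cytokine comparison (0 at an unadjusted p under 0.05). With the factors of the peaks 3 were lower there, where 11635 of 18887 genes were. Scaled on gene loci, 3 were lower in the belinostat comparison, where 3.72% of all genes were. These were PLAU, the urokinase (-0.26 ± 0.04), its receptor PLAUR (-0.26 ± 0.05) and PLAT, the tissue-type activator (-0.17 ± 0.05). PLAT was closest to the threshold and was not called with loess offsets or the factors of the peaks. PLG, the gene of plasminogen, was at 0.50 ± 0.18 and not called (adjusted p = 0.102). The median belinostat log2 fold change of these 5 was -0.17, against 0.01 over all genes. Because cells were profiled in bulk, openness of fewer cells and less openness per cell cannot be told apart.

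Counts in the cluster as a whole were 181.8 ± 9.2 CPM by library totals (SD, n = 6) in unstimulated libraries, 189.3 ± 12.0 in DMSO libraries and 173.6 ± 10.5 in those given belinostat. The raw counts were 1231 to 1984, 1168 to 1437 and 735 to 1164. The ranges of the groups overlapped, and no test was run on them.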

How the data were processed

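Bulk ATAC-seq was measured in 18 libraries of the colon fibroblast line Ccd18-Co, grouped by their titles into 3 groups of 6. The authors processed the reads with the ENCODE ATAC-seq pipeline (hg38), called peaks with MACS2, built a consensus set over conditions and used csaw for counting. The deposited file holds the raw counts of fragments per peak and library, not normalized. The authors then normalized on background bins and merged nearby peaks, which was not repeated here, since counts outside peaks were not used here. A change in the share of background reads can therefore reach the peak counts.

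Here all 334857 peaks were fitted in edgeR 4.0.16 (R 4.3.3) with TMM factors, its earlier quasi-likelihood method, 1 mean per group and no covariate, with a Benjamini-Hochberg adjustment across all peaks. Peaks or loci with an adjusted p under 0.05 were called. Counts at an unadjusted p have no share of all peaks or genes beside them, and nothing is read from them. Log2 CPM used a prior count of 2. Standard errors were derived from the fold change and its F statistic. Gene loci (18887 genes) were tested the same way, with their own TMM factors. Genes came from GENCODE release 44. Peak starts are counted from 1. Peaks of like level are those of the same of 20 bins of average log2 CPM.

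Alternatives were library totals, TMM over 10 kb bins or the weaker 50% of peaks, loess offsets (limma 3.58.1, span 0.3), a filter on average log2 CPM or none, DESeq2 1.42.0, a replicate block, other gene windows and leaving out each library. The factors of the peaks for gene loci were added after the data were seen. The fit was also run on simulated counts with a constant dispersion and known changes in the DMSO group. That simulation had no trend of change with peak level, so it does not cover the trend seen in these data. Libraries of a group were compared in pairs over the peaks above a floor of total counts (index of dispersion 1.03 to 2.10, where 1 is sampling noise), and none were merged. Weaker peaks did not enter that check. The members, lists and tests were chosen with earlier results of these data known. Named were all 9 genes, the peak nearest each start, the 10 highest peaks, every called peak of the cytokine and belinostat comparisons, the residual ones up to 5, and up to 8 listed genes. One listed gene is not reported here. Total counts limit weak peaks, and their errors cover counting and library spread.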

Additional observations from a re-analysis of the deposited data

Results flagged for a closer look

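Libraries were compared within each group of 6 for 63 combinations of a named peak, a locus or the cluster total with a group. In 4 of them the highest or lowest library stood apart beyond the critical value of Dixon's test, and chance alone flags about 1 in 20. Belinostat replicate 2 was the lowest at the MMP3 start peak, with 0.0925 log2 CPM and far from the next library, and at the MMP3 locus, with 2.52 against 3.20; the start peak is part of that locus. Unstimulated replicate 6 was the highest at the closed peak between MMP8 and MMP10, with 3.85 against 3.39 log2 CPM. Belinostat replicate 1 was the lowest at the MMP8 locus, with 3.54 against 3.95 log2 CPM.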

How the results depend on the processing

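The closed peaks of the belinostat comparison, between MMP8 and MMP10 and between MMP7 and MMP20, passed under all 26 alternatives, and that in the MMP13 intron under 25, missing with TMM over the weaker 50% of peaks (-0.64, adjusted p = 0.11), while the 5 cytokine calls did not survive loess offsets. The number of cluster peaks opened and closed in the cytokine comparison was 2 and 1 with library totals and 1 and 0 with loess offsets. With TMM over the weaker 50% of peaks 22 closed, and 3 closed with DESeq2. Over all 334857 peaks, 54265 opened and 10894 closed with library totals, and 84230 closed with TMM over the weaker 50%. DESeq2 closed 18587 of 334853 peaks. In the belinostat comparison 0 peaks opened with TMM over the weaker 50% of peaks, with loess offsets, with DESeq2, which gave the 1 opened peak no adjusted p, and with a filter of average log2 CPM over 0, which removes that peak before the test. In the residual comparison 14 opened and 7 closed with library totals, 0 and 36 with TMM over the weaker 50% of peaks, 0 and 8 with loess offsets, 4 and 9 with DESeq2, and 1 opened with the filter over 0. Over all 334857 peaks, 101897 opened and 21124 closed with library totals, and 8850 and 103354 with TMM over the weaker 50%. DESeq2 opened 41551 and closed 33828 of 334853 peaks, and with the filter 25293 of 200098 opened. These scalings move the median of all cytokine log2 fold changes from 0.13 to 0.34 (library totals), -0.30 (weaker 50%) and 0.01 (loess). Leaving out 1 library gave 0 to 1 opened and 4 to 7 closed peaks (cytokine), 0 to 1 and 3 to 5 (belinostat) and 5 to 9 and 11 to 15 (residual). The 1 opened cytokine peak came without unstimulated replicate 3, the 5 closed belinostat peaks without belinostat replicate 1, and the 5 opened residual peaks without unstimulated replicate 1 or belinostat replicate 4 or 5.

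Of the 9 loci, the number lower in the cytokine comparison was 0 with library totals, peaks near the start or DESeq2. It was 2 with the factors of the peaks, where 11635 of 18887 genes were lower. In the belinostat comparison the number lower was 0 with peaks near the start, a setting that has no value for MMP13, whose peaks lie farther off. In the residual comparison 0 loci were higher with loess offsets, DESeq2, the replicate block or the factors of the peaks, and 2 with gene bodies alone. There 4 were lower with loess offsets, 0 with peaks near the start and 6 with the factors of the peaks. Of all 18887 genes, 3357 were lower with loess offsets and 12451 with the factors of the peaks. Leaving out 1 library gave 0 to 1 loci higher or lower in the cytokine comparison (1 higher without DMSO replicate 4 or 5), 0 to 1 lower in the belinostat comparison, and 0 to 1 higher and 1 to 2 lower in the residual comparison (2 lower without unstimulated replicate 1).

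Some log2 fold changes turned sign, all of them uncalled except MMP12 (cytokine) and MMP7 (residual). With loess offsets the cytokine values were 0.014 for the MMP1 start peak, 0.022 for the MMP3 start peak, -0.13 for the MMP7 locus, -0.25 for MMP10 and -0.23 for MMP27; the belinostat values were -0.11 for MMP7 and -0.13 for MMP27, and the residual value of MMP7 was -0.24. With library totals the MMP3 start peak was at 0.10. With peaks near the start the cytokine values were -0.013 (MMP1), 0.31 (MMP3) and 0.38 (MMP12), and the belinostat value of MMP27 -0.12; with gene bodies the cytokine value of MMP8 was 0.30. With the factors of the peaks the cytokine values were -0.16 (MMP1), -0.18 (MMP13), -0.045 (MMP20) and -0.016 (MMP27), and the belinostat value of MMP27 -0.046. Without 1 library the MMP3 cytokine value ran from -0.091 to 0.047, the MMP20 belinostat value from -0.095 to 0.00043 and the MMP27 belinostat value from -0.034 to 0.14. The causes were not tested.

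Same-numbered libraries shared only a number: their correlations ran from -0.20 to 0.11, and 0 libraries correlated best with their own number. With a replicate block 0 cluster peaks opened and 6 closed in the cytokine comparison, 1 and 3 in the belinostat comparison and 6 and 14 in the residual comparison. The MMP1 start peak was then called in the cytokine comparison (-0.32, adjusted p = 0.0434), and the residual MMP7 call was lost. That peak passed in 8 of 26 alternatives. The others were TMM over the weaker 50% of peaks, the filter over 0, and leaving out unstimulated replicate 2, DMSO replicate 2 or 3, or belinostat replicate 1 or 4.

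The share of counts in the cluster was 169.6, 175.6 and 159.8 CPM in unstimulated, DMSO and belinostat libraries when only the 72 peaks from the first to the last member gene with 3 kb around them were taken. Depth limits the weak peaks: the MMP7 start peak had 1 to 8 counts in each library.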
